A study of Mus musculus with 19 samples.

Results

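The genes *Nkg7*, *Ctsw*, *Klrd1*, *Cd160*, *Ms4a4b*, *Adgrg5*, *Cd7* and *Plac8* are 8 of the 28692 genes counted in single mouse thymocytes, of which 19889 had at least 1 unique molecular identifier (UMI) in the cells kept. They were chosen because they were higher in late CD8-lineage cells of these same mice, so that their levels in late CD8-lineage against late CD4-lineage cells are given below as a description, without a test. Comparisons in cells of earlier stages, between genotypes of one lineage, between CD4 stages and between mature CD8 cells split by surface proteins are other contrasts and were tested, although those that involve mature cells share these with the choice. All 8 genes were found once each under these names.

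Thymocytes of 17 mice aged 4 to 8 weeks were measured by CITE-seq, which counts RNA and, through antibodies carrying DNA tags, surface proteins of the same cells. CD4-fated thymocytes came from AND and OT-II mice, whose transgenic T cell receptors (TCRs) recognize MHC class II, and from MHCI-/- mice, which lack *B2m*; CD8-fated thymocytes came from F5 and OT-I mice, whose transgenic TCRs recognize MHC class I, and from MHCII-/- mice, which lack *H2-Ab1*. Each of these 6 genotypes had 2 mice, and there were 5 wild-type (B6) mice. AND and F5 mice were also Rag1-/-, which leaves the transgenic TCR as their only one, whereas OT-I and OT-II mice were not, and MHCI-/-, MHCII-/- and wild-type mice had diverse TCRs.

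MHCI-/- mice, MHCII-/- mice and wild-type replicates 1 to 3 were sorted for CD5+TCRB+ cells, and the other mice were not sorted. The first replicates of AND, F5 and wild type made up experiment 1, the second replicates of AND and F5, wild-type replicates 2 and 3 and all MHC-deficient mice experiment 2, and OT-I, OT-II and wild-type replicates 4 and 5 experiment 3, which was done at another site. Site and experiment therefore cannot be told apart from the OT-I and OT-II genotypes when these are set against the other lines. The genotypes were checked first: *B2m* was at 46.2 and 49.2 counts per 1000000 RNA UMIs (CPM) in MHCI-/- mice against 402 to 1250 in the other 15 mice, and the antibody to I-A/I-E took 2.23 and 2.24 of 10000 antibody UMIs in MHCII-/- mice against 23.9 to 125 in the rest.

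The 19 lanes held 9893333 to 43303999 RNA UMIs, and the median cell 1519 to 7294. In experiment 3 the second mouse of each genotype was shallower, with medians of 3193 against 7294 in OT-I, 2152 against 4305.5 in OT-II, and 1519 and 1578.5 against 2880 and 3485 in the lanes of wild-type replicates 5 and 4. Antibody depth was lowest in AND replicate 2, with a median of 1106 antibody UMIs against 2618.5 to 6574 in the other lanes. Of its 4320 cells that passed the RNA filters, 1901 passed those on antibodies too. At most 35 barcodes, or 1.27% of the smaller lane, were shared by 2 lanes of an experiment, and 507 of the 69116 cells kept had such a barcode.

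Cytotoxic lymphocytes kill by releasing granules loaded with perforin and granzymes, and they read target cells through activating and inhibitory receptors, many of which natural killer (NK) cells share with CD8 T cells. In the thymus, double-positive (DP) thymocytes carry both coreceptors, CD4 and CD8. Cells whose TCR binds MHC class I become CD8 single-positive cells, a choice tied to the transcription factor RUNX3, and cells whose TCR binds MHC class II become CD4 single-positive cells, a choice tied to ThPOK. Parts of the cytotoxic gene program are switched on in CD8 thymocytes before they leave the thymus and without any infection.

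Stages were drawn from surface antibodies alone, with no gene, with antibodies to CD4, CD8a, TCRB, CD69 and CD127. DP1 cells were CD4+CD8+ without CD69 or CD127, DP2 cells carried CD69, CD4+CD8lo cells had lost part of their CD8, and DP3 cells were again CD4+CD8+ with TCRB, CD69 and CD127. Single-positive cells with CD69 were called semimature (CD4 SM, CD8 SM) and those without it mature (CD4 M, CD8 M). Of the 69116 cells, 20944 were DP1, 5418 DP2, 6120 CD4+CD8lo, 1615 DP3, 7095 CD4 SM, 4159 CD4 M, 2191 CD8 SM and 3061 CD8 M, and 18513 lay in no gate. Coreceptor RNA followed the gates: *Cd8a* was at 477 to 845 CPM in CD8 M cells of the 6 CD8-fated mice and at 4.55 to 18.4 in CD4 M cells of the 6 CD4-fated mice. A mouse entered a gate with at least 20 cells, its UMIs were summed there, and every level below is in CPM of that sum, with the mouse as the replicate.

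**Figure D1:**
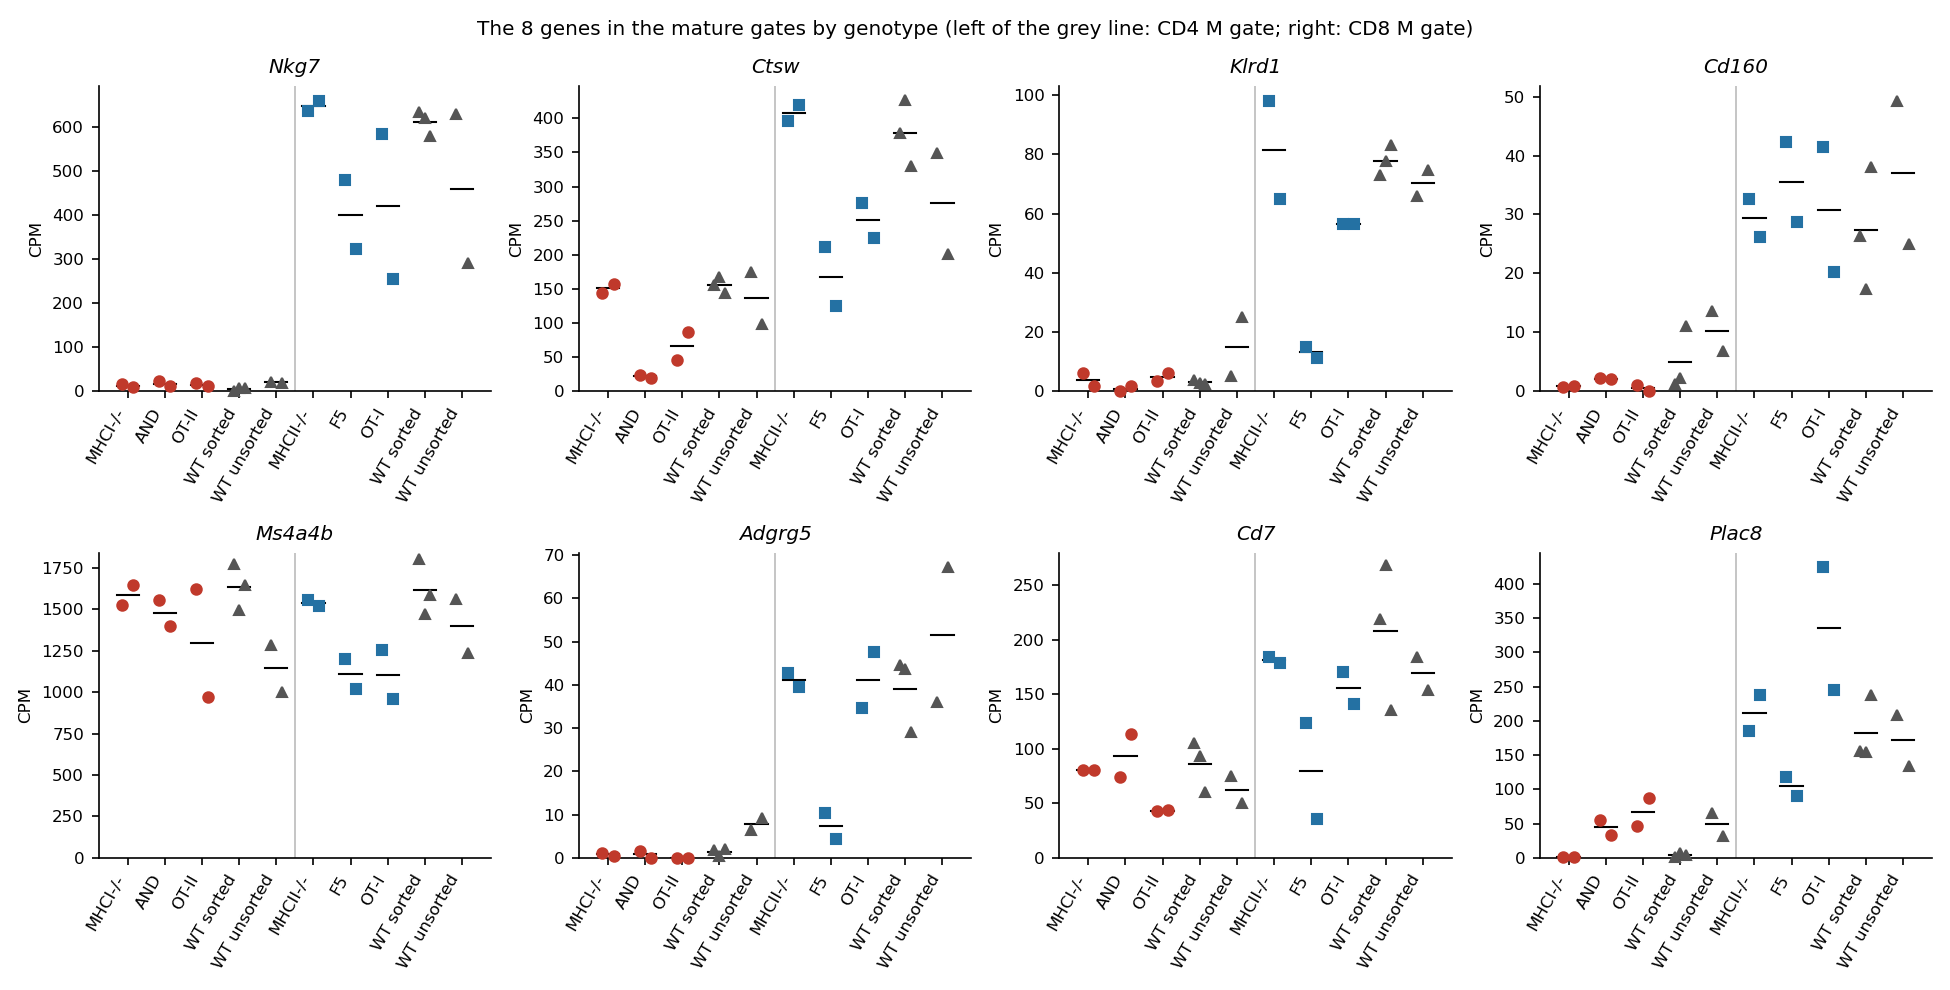
Level of each gene in CPM (vertical axes, linear, from 0) in CD4 M cells, left of the grey line, and CD8 M cells, right of it, by genotype. Each point is a mouse (red circles CD4-fated, blue squares CD8-fated, grey triangles wild type) and each bar the mean of a group. *Nkg7* lay at 255 to 661 CPM in CD8 M cells of CD8-fated mice and at 9.12 to 22.5 CPM in CD4 M cells of CD4-fated mice, the F5 points were the lowest of *Klrd1* and *Adgrg5* right of the line, and the *Ms4a4b* points of both sides overlapped.

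*Nkg7* encodes a membrane protein of cytotoxic granules that is needed for their efficient release. It lies at chr7:43437138-43438246 (GRCm38). In CD8 M cells of CD8-fated mice *Nkg7* was at 479 and 323 CPM in F5, 637 and 661 in MHCII-/-, and 586 and 255 in OT-I mice, and in CD4 M cells of CD4-fated mice at 22.5 and 12.4 in AND, 17.4 and 9.12 in MHCI-/-, and 18.2 and 12.4 in OT-II mice. Every CD8-fated mouse was far above every CD4-fated mouse, and the groups did not overlap. The means were 490 ± 169 (SD, n = 6) and 15.3 ± 4.87 (SD, n = 6) CPM, and wild-type mice had 552 ± 147 and 11.3 ± 8.80 CPM (SD, n = 5) in the same gates. The mean of CD4 M cells of CD4-fated mice was 6.54 CPM when clusters of other cell types were left out, a choice made after seeing the data. Counted by cells after thinning each cell to 1500 UMIs, 47.7% ± 10.6 of CD8 M cells of CD8-fated mice and 1.21% ± 0.477 of CD4 M cells of CD4-fated mice had an *Nkg7* UMI (SD, n = 6 mice each), and without thinning 78.0% and 2.51%, at median depths of 6375.5 and 4910 UMIs. DP1 cells, which precede both lineages, had 0.954% ± 1.54 in CD4-fated mice (SD, n = 5, from 0 to 3.66%) and 0.276% ± 0.165 in wild-type mice (SD, n = 5), at median depths of 3247.5 and 2857 UMIs. The share in CD4 M cells lay within the first range and above the second, at 0.073 to 0.489%.

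*Ctsw* encodes cathepsin W, a cysteine protease found mostly in cytotoxic T cells and NK cells. *Ctsw* ran from 124 to 420 CPM with a median of 250 in CD8 M cells of CD8-fated mice and from 19.4 to 158 with a median of 66.2 in CD4 M cells of CD4-fated mice, so the 2 groups overlapped. Within each family of lines the CD8-fated mice were higher, at 168 against 22.0 CPM for F5 and AND, 408 against 151 for MHCII-/- and MHCI-/-, and 250 against 66.2 for OT-I and OT-II. In wild-type mice the ratio of the means was 2.28.

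The receptors of the NK type follow. *Klrd1* encodes CD94, which pairs with NKG2 chains to form receptors for a nonclassical MHC class I molecule. *Klrd1* was at 50.4 ± 32.7 CPM in CD8 M and 3.22 ± 2.50 CPM in CD4 M cells of the lineage-restricted mice (SD, n = 6 each), 1.42 CPM in CD4 M cells without clusters of other types, and the lowest CD8-fated value, 11.4 CPM in F5 replicate 2, stood above the highest CD4-fated value of 6.22 CPM. *Cd160* encodes a lipid-anchored receptor that binds HVEM and MHC class I. It was at 31.9 ± 8.70 CPM in CD8 M and 1.20 ± 0.850 CPM in CD4 M cells. *Adgrg5*, an adhesion G protein-coupled receptor, was at 29.9 ± 18.1 and 0.534 ± 0.689 CPM. It had no UMI in CD4 M cells of both OT-II mice, which allows up to 3.41 CPM in replicate 1 and 18.6 CPM in replicate 2, a limit of 3 counts that covers counting error only. The *Cd160* groups did not overlap. Nor did the measured values of *Adgrg5*, but the limit of OT-II replicate 2 lies above both F5 mice, at 10.4 and 4.26 CPM.

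*Cd7*, a receptor of the immunoglobulin family found on T and NK cells, was at 139 ± 55.8 CPM in CD8 M and 72.6 ± 26.6 CPM in CD4 M cells, with overlap. *Cd7* was at 124 and 35.5 CPM in the F5 mice and at 74.0 and 113.7 CPM in the AND mice, which overlapped, while MHCII-/- mice had 182 against 80.6 in MHCI-/- and OT-I mice 156 against 43.4 in OT-II. *Plac8*, a small cysteine-rich protein also abundant in myeloid cells, ran from 90.9 to 425 CPM in CD8 M and from 0.986 to 87.0 CPM in CD4 M cells, with the lowest CD8-fated mouse just above the highest CD4-fated mouse.

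*Ms4a4b*, a membrane protein of the MS4A family expressed by T cells, went against the label of the group. It was at 1250 ± 248 CPM in CD8 M cells of CD8-fated mice and 1453 ± 252 CPM in CD4 M cells of CD4-fated mice (SD, n = 6 each). The ratio of the means was 0.751 for F5 over AND, 0.969 for MHCII-/- over MHCI-/-, 0.852 for OT-I over OT-II and 1.06 for CD8 M over CD4 M in wild-type mice. By these surface gates *Ms4a4b* was therefore a gene of mature cells of both lineages and is described here with that reservation. Over all genes tested in the same contrast of the mature gates, 10.5% passed edgeR's quasi-likelihood test with Benjamini-Hochberg adjustment at 0.05, 5.27% higher and 5.19% lower in CD8-fated mice. As the choice of the 8 genes used that contrast, nothing is read from their own share.

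**Figure D2:**
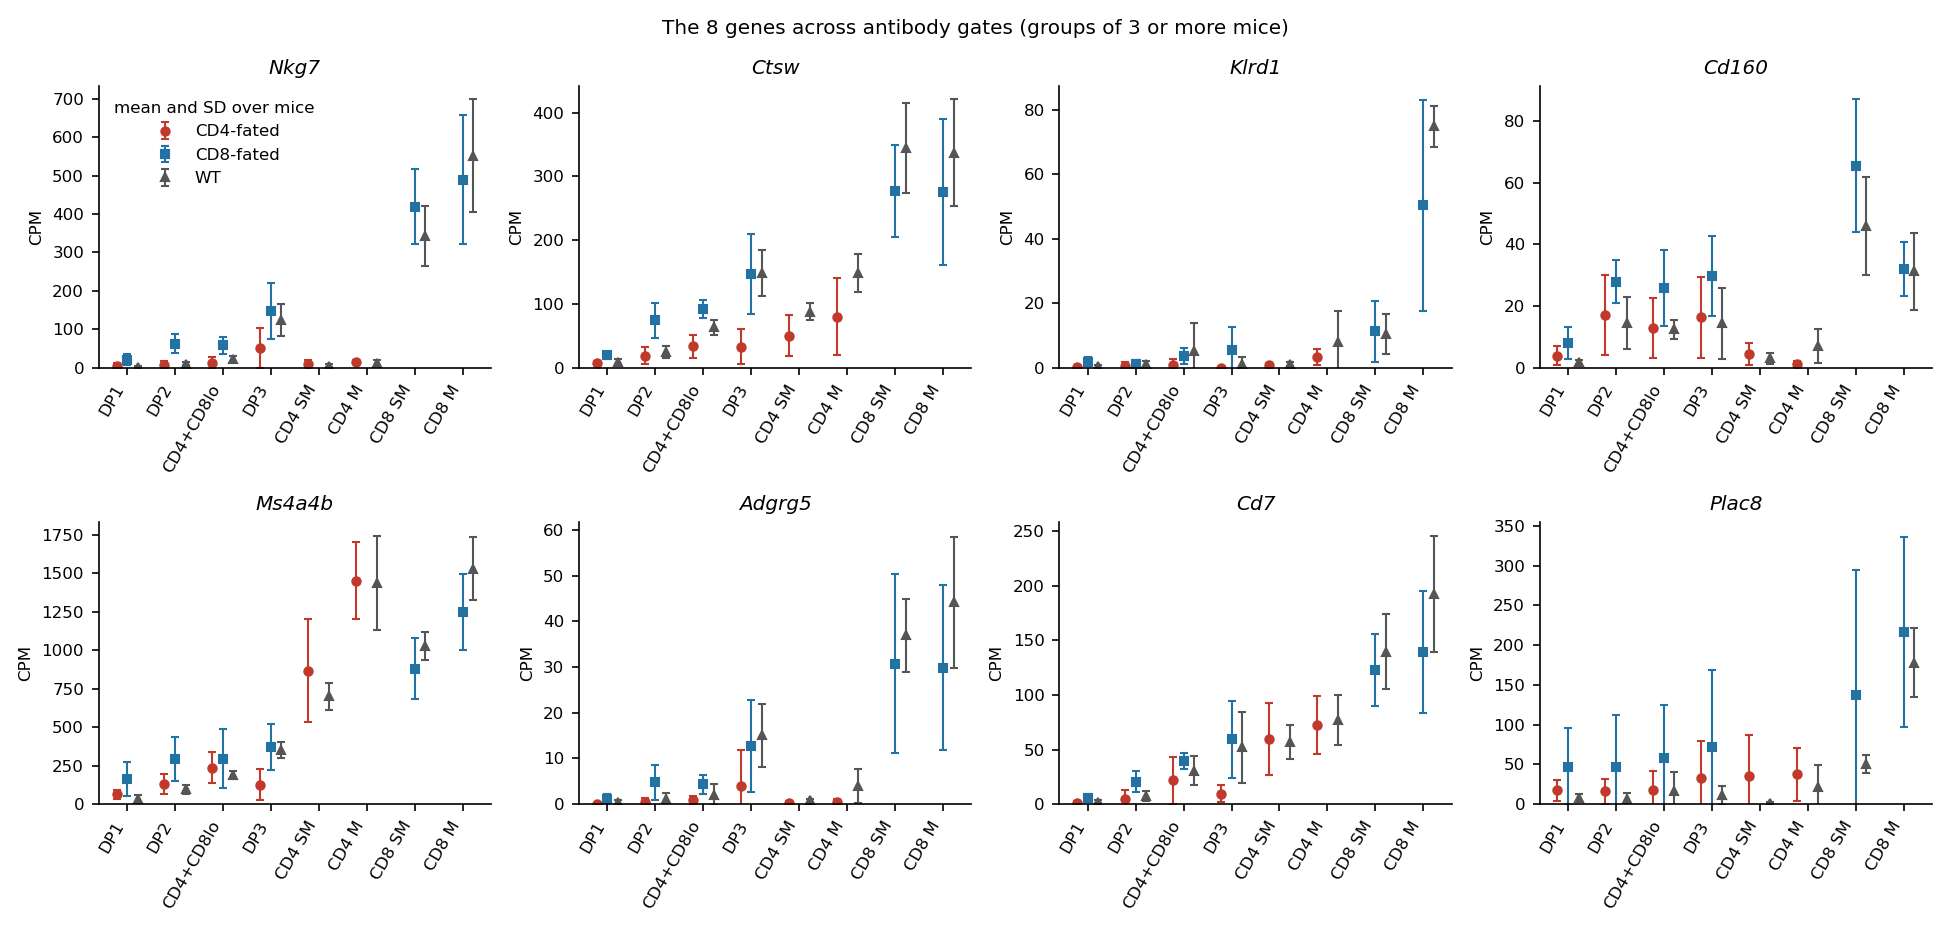
Mean level of each gene in CPM (vertical axes) over the 8 antibody gates (horizontal axes), with bars of 1 SD over mice, for groups of 3 or more CD4-fated (red circles), CD8-fated (blue squares) and wild-type mice (grey triangles). *Klrd1* had its highest mean in CD8 M cells, *Cd160* was higher in CD8 SM (65.5 CPM) than in CD8 M cells (31.9 CPM) of CD8-fated mice, and *Ms4a4b* was high in the mature gates of both lineages.

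The genes did not follow one course from semimature to mature CD8 cells. *Klrd1* was higher in CD8 M than in CD8 SM cells in 6 of 6 CD8-fated and 5 of 5 wild-type mice, with CD8 SM and CD8 M means of 11.2 and 50.4 CPM in CD8-fated and 10.3 and 74.9 CPM in wild-type mice. In CD8 SM cells of both F5 mice *Klrd1* had no UMI, which allows 11.1 and 28.8 CPM. The second limit exceeds the 11.4 CPM of F5 replicate 2 in CD8 M cells, so that its direction is not determined. *Ms4a4b* was higher in CD8 M cells in all of these mice too, with ratios of the means of 1.42 and 1.49. The same held for *Plac8*, whose ratios ran from 1.01 in one OT-I mouse to 7.96 in an F5 mouse, and from 2.81 to 4.18 in wild-type mice. *Cd160* went the other way. Its mean was 65.5 CPM in CD8 SM and 31.9 CPM in CD8 M cells of CD8-fated mice, with 0 of 6 mice higher in CD8 M cells, and 45.9 and 31.2 CPM in wild-type mice, with 1 of 5 higher. *Ctsw* and *Adgrg5* had ratios of the means of 0.994 and 0.971 in CD8-fated mice and 0.977 and 1.20 in wild-type mice, and single mice went both ways. The ratio of *Ctsw* ran from 0.498 to 1.19 in CD8-fated and from 0.86 to 1.11 in wild-type mice, and that of *Adgrg5* from 0.741 to 1.61 in wild-type mice. *Nkg7* and *Cd7* were higher in CD8 M cells in 5 of 6 CD8-fated and 5 of 5 wild-type mice, with ratios of 1.17 and 1.13 in CD8-fated mice and 1.61 and 1.38 in wild-type mice. The CD8 step is a description, since late CD8 cells were part of the choice of genes.

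DP3 cells are the stage from which CD8 cells arise. *Nkg7* in DP3 cells was lowest at 43.3, had a median of 143 and reached 270 CPM in 6 CD8-fated mice, and it ran from 73.7 to 185 CPM in 5 wild-type mice. In CD4-fated mice, where DP3 cells were few, *Nkg7* was at 30.2 and 8.02 CPM in MHCI-/- and 39.2 and 126 CPM in OT-II mice, so that OT-II replicate 2, with 33 DP3 cells, lay among the CD8-fated mice. *Ctsw* in DP3 cells had medians of 150 CPM in CD8-fated and 23.3 CPM in CD4-fated mice, with overlap. *Klrd1* in DP3 cells ran from 0 in both F5 mice to 18.9 CPM in OT-I replicate 2, with a median of 3.09 CPM in CD8-fated mice, and had no UMI in the 4 CD4-fated mice. The 0 in CD4-fated mice allows 7.83 to 47.3 CPM, and that in the F5 mice 23.6 and 32.4 CPM, above the highest measured value.

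The question of when the lineages part was tested in the gates before the single-positive stage, between CD8-fated and CD4-fated mice with the family of lines (AND with F5, MHCI-/- with MHCII-/-, OT-II with OT-I) as a covariate. The mice are those on which the genes were chosen, but the gates are earlier ones. DP2 cells of CD8-fated mice carried more TCRB antibody, in the unit used for I-A/I-E. It was at 138 and 115 in F5 against 83.3 in AND replicate 1. In MHCII-/- mice it was at 56.1 and 57.7, against 39.6 and 35.6 in MHCI-/-. OT-I mice had 65.0 and 52.1, against 29.0 and 24.1 in OT-II. DP3 cells had 158 and 136 in F5, 113 and 114 in MHCII-/-, and 102 and 86.9 in OT-I mice. A part of later cells in the CD8-fated DP2 values was not tested. In DP2 cells *Nkg7* was at 64.6 and 50.2 CPM in F5, 38.5 and 52.3 in MHCII-/-, and 109 and 57.7 in OT-I mice. It was at 20.8 in AND replicate 1, 1.62 and 2.29 in MHCI-/-, and 11.6 and 2.09 in OT-II mice, while AND replicate 2 had no DP2 cell. Every CD8-fated mouse was above every CD4-fated mouse. *Nkg7* was higher in CD8-fated DP2 cells by a log2 fold change of 3.43 ± 0.37 (SE, adjusted p = 0.000935, edgeR), and *Ctsw* by 1.96 ± 0.32 (adjusted p = 0.0263). Both were called among the 6 of the 8 genes that passed edgeR's filter on low counts, beside 0.151% of the 7946 genes tested, or 0.113% in this direction and 0.0378% in the other.

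*Ctsw* in DP2 cells was at 41.8 to 108 CPM in the 6 CD8-fated mice and at 4.16 to 34.0 CPM in the 5 CD4-fated mice, again without overlap. Its call was weaker than that of *Nkg7*: leaving out 1 of 11 mice kept *Nkg7* called each time, but *Ctsw* in 4 of 11, with adjusted p between 0.00618 and 0.17. *Ctsw* was not called without AND replicate 1 (adjusted p = 0.0578), F5 replicate 2 (0.053), MHCI-/- replicate 1 (0.0955) or 2 (0.17), MHCII-/- replicate 1 (0.107) or 2 (0.102), or OT-I replicate 1 (0.0538, edgeR), nor without the family term (0.082) or with cells near a gate threshold left out (0.0709, edgeR). Within the families *Nkg7* in DP2 cells had means of 57.4 and 20.8 CPM in F5 and AND, 45.4 and 1.95 in MHCII-/- and MHCI-/-, and 83.5 and 6.84 in OT-I and OT-II mice, and *Ctsw* 65.1 and 4.16, 102 and 26.1, and 55.4 and 18 CPM, with no overlap in any family. AND had 1 mouse there and the other lines 2 each, and how many of all genes did not overlap was not counted. *Cd160*, *Ms4a4b*, *Cd7* and *Plac8* had log2 fold changes of 0.73, 1.19, 2.15 and 1.85 in DP2 cells and did not pass (adjusted p of 0.2 to 0.846, edgeR). *Cd7* was called without OT-II replicate 1, its one CD4-fated mouse above the lowest CD8-fated mice (5.60, adjusted p = 0.00618). *Klrd1* and *Adgrg5* did not pass the filter on low counts in DP1, DP2 or CD4+CD8lo cells. Fits without that filter drew each gene's spread almost wholly to the trend over all genes. Without that filter *Klrd1* was called higher in CD8-fated DP1 (3.92, adjusted p = 0.0154) and CD4+CD8lo cells (3.23, adjusted p = 0.018) and not in DP2 cells (1.15, adjusted p = 0.964, edgeR). *Adgrg5* was then called in DP1 cells (adjusted p = 0.0238), where it had no UMI in the 5 CD4-fated mice and 0.298 to 2.83 CPM in the CD8-fated mice, and in DP2 cells (2.96, adjusted p = 0.0203), and not in CD4+CD8lo cells (2.14, adjusted p = 0.108, edgeR). Measured values of *Klrd1* in DP2 cells reached 2.21 CPM in the CD8-fated and 2.90 CPM in the CD4-fated mice, and *Adgrg5* reached 11.9 CPM in OT-I replicate 2 and 2.17 CPM in OT-II replicate 1. Both genes had no UMI in F5 replicate 2 and AND replicate 1, which allows 12.6 and 12.5 CPM.

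**Figure D3:**
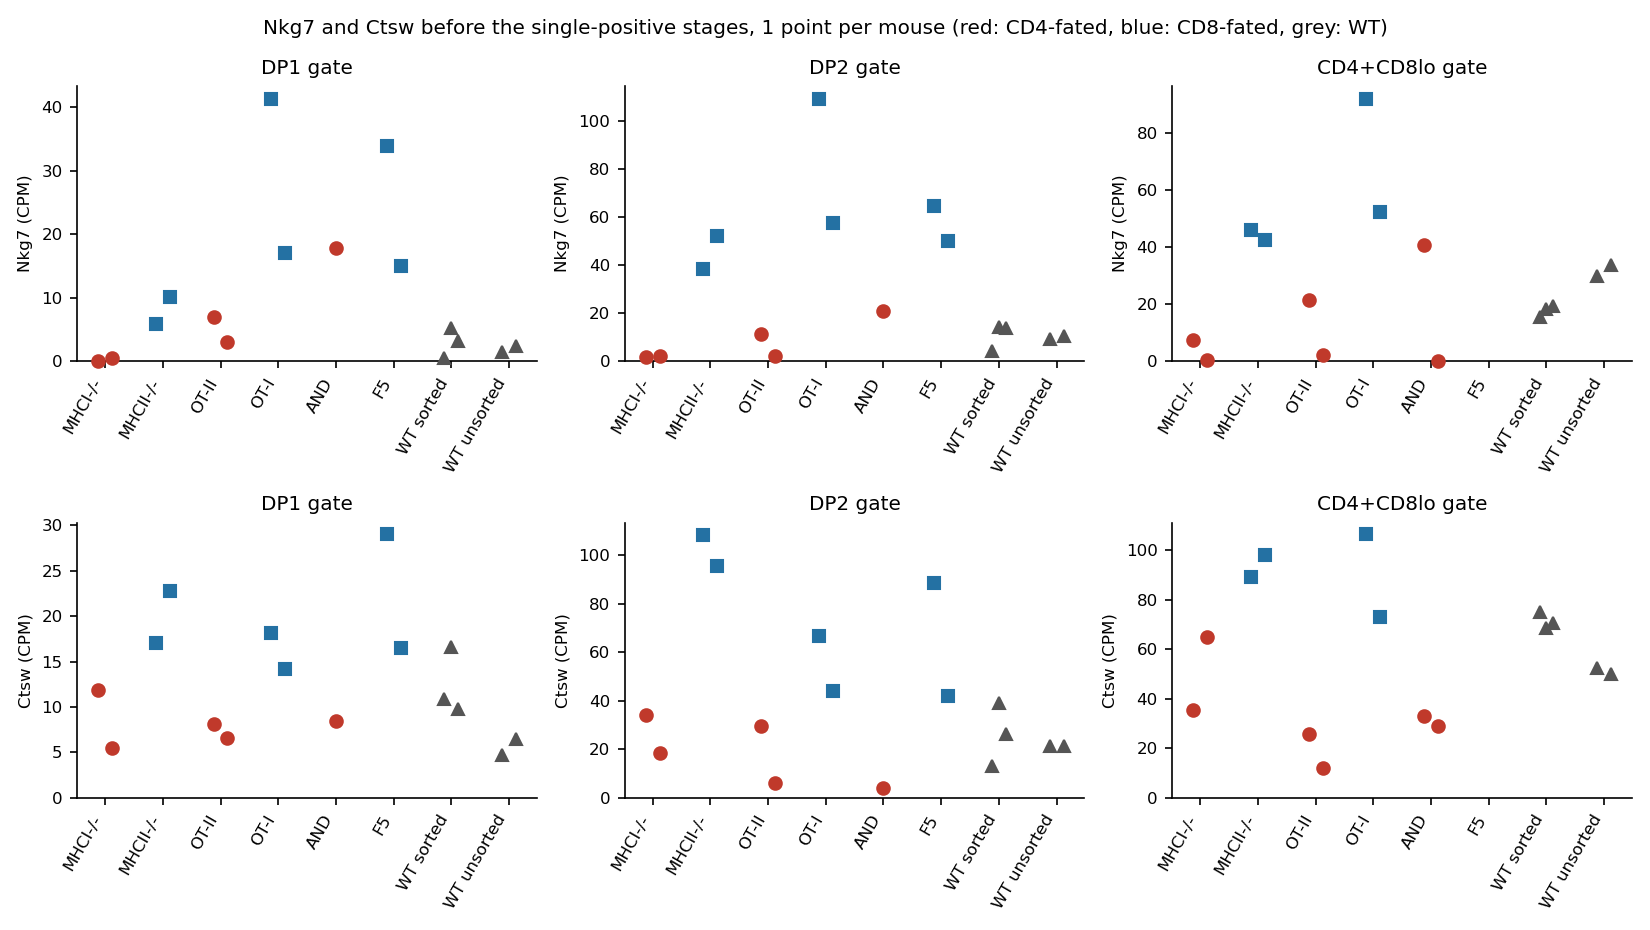
*Nkg7* (upper row) and *Ctsw* (lower row) in CPM in DP1, DP2 and CD4+CD8lo cells by genotype, with 1 point per mouse (red CD4-fated, blue CD8-fated, grey wild type). In DP2 cells *Nkg7* lay at 38.5 to 109 CPM in CD8-fated and 1.62 to 20.8 CPM in CD4-fated mice, and F5 mice have no points in the CD4+CD8lo panels.

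In DP1 cells, before TCR signals had raised CD69, *Nkg7* was lowest at 5.94, had a median of 16.04 and reached 41.3 CPM in the 6 CD8-fated mice, and had values of 17.8 in AND replicate 1, 0 and 0.453 in MHCI-/-, and 6.94 and 3.06 CPM in OT-II mice. The groups overlapped through AND. *Ctsw* did not overlap, at 14.2 to 29.1 CPM in CD8-fated and 5.44 to 11.9 CPM in CD4-fated mice. The log2 fold changes were 2.10 ± 0.53 for *Nkg7* and 1.21 ± 0.25 for *Ctsw* (SE), and neither passed with edgeR, which called 0 of 6 of the genes at adjusted p of 1.0, beside 0.0106% of 9438 genes, 1 gene in all. At an unadjusted p under 0.05, 189 genes and, of the 8, *Nkg7*, *Ctsw*, *Cd160* and *Cd7* passed, and DESeq2 called *Nkg7* and *Ctsw* at an adjusted p of 0.0376 each. Wild-type DP1 cells, in which both fates are mixed, had 0.516 to 5.23 CPM of *Nkg7*.

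Values of whole libraries stand beside these early values. The *Nkg7* level of the whole library was 53.6 to 268 CPM in the CD8-fated and 12.2 to 114 CPM in the CD4-fated mice, a difference in the same direction, and the part of free RNA was not tested. Within the libraries of AND replicate 1 and OT-I replicate 2, which held *Nkg7* at the same 114 CPM, DP2 cells had 20.8 and 57.7 CPM. These libraries come from different experiments and differ in their cells, so nothing about free RNA is read from them. Wild-type values are given by gate within the same mice, again without a test of free RNA. There CD4+CD8lo cells had 15.5 to 33.8 CPM of *Nkg7* and CD4 SM cells 1.60 to 10.0 CPM, and CD4+CD8lo cells were higher in 5 of 5 mice.

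CD4+CD8lo cells of F5 mice were too few, at 3 and 10 cells, so the comparison rested on MHCII-/- and OT-I mice against MHCI-/- and OT-II mice, and the AND mice were absorbed by the family term. *Nkg7* was at 46.1 and 42.5 CPM in MHCII-/- and 91.9 and 52.3 in OT-I mice, against 7.39 and 0.400 in MHCI-/-, 21.4 and 2.40 in OT-II, and 40.6 and 0 in AND mice, where the 0 allows 28.9 CPM. The lowest CD8-fated mouse was just above AND replicate 1. Its log2 fold change was 2.84 ± 0.51 (SE, adjusted p = 0.0374, edgeR), beside 0.251% of 8768 genes called, or 0.103% in this direction and 0.148% in the other. The call was kept in 3 of 10 fits that left out a mouse, being lost without either AND, MHCI-/- or MHCII-/- mouse or OT-II replicate 2 (adjusted p up to 0.16), and was lost with DESeq2 (adjusted p = 0.179), with at least 50 cells per mouse (0.0606) and without the family term (0.473, edgeR). With 1 mouse left out the log2 fold change ran from 2.3 to 3.9, and without the family term it was 2.11. *Ctsw* and *Cd7* did not pass (1.36 and 1.32 on the log2 scale, adjusted p of 0.0815 and 0.16), but they were called, at adjusted p of 0.0212 and 0.00624 (edgeR), with the replicate number as a block, under which 89 genes in place of 22 passed. DESeq2 also called them (0.00444 and 0.0279). *Ms4a4b* had a log2 fold change of 0.06 with a 95% interval of -0.60 to 0.73. *Ms4a4b* was at 138 and 121 CPM in MHCII-/- and 201 and 162 CPM in MHCI-/- mice, but at 488 and 430 CPM in OT-I and 312 and 271 CPM in OT-II mice.

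*Runx3*, the transcription factor of the CD8 lineage, was the single gene of a list of 37 related cytotoxic and NK-receptor genes that was called in these early gates, higher in CD8-fated DP2 cells by 1.90 ± 0.21 (SE, adjusted p = 0.000935) and in CD4+CD8lo cells by 1.58 ± 0.22 (adjusted p = 0.00526, edgeR). Of that list 7 genes were tested in DP2, 9 in CD4+CD8lo and 9 in DP1 cells, where none passed, and their median log2 fold changes of 0.26, 0.41 and 0.18 stood beside medians of 0.01, 0.00 and -0.00 over all genes. In mature cells the list is given no test, since that contrast chose the 8 genes. The median log2 fold change of its 11 genes that passed the filter there was 1.96, and it includes *Cd8a* and *Cd8b1*, whose difference follows from gates drawn on CD8a antibody. The list was drawn up with earlier results of these data known and is no independent evidence.

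The promoters give the sequence context. RefSeq start sites (GRCm38) gave windows of 250 bases before to 50 after the start for 5 of the 8 genes, *Nkg7*, *Cd160*, *Ms4a4b*, *Adgrg5* and *Plac8*. They were searched on both strands for TGTGGT (RUNX), GGTGTG (T-box), CGGAAG (ETS) and GGGTGT (KLF), of which the T-box and KLF letters can overlap. The 150 bases before the start are shown for *Nkg7*, for *Adgrg5*, whose pattern over the gates was the most like it among the other 7 genes, and for *Ms4a4b*, whose pattern was the least like it, each on the plus strand 5′ to 3′ with the letters found in capitals.
Nkg7, chr7:43436988-43437137: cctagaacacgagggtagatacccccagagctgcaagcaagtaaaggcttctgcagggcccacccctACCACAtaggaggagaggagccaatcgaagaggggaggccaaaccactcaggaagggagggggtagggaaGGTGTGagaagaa
Adgrg5, chr8:94923544-94923693: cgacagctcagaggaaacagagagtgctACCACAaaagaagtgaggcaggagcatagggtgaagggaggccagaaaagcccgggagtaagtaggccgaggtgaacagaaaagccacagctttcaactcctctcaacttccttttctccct
Ms4a4b, chr19:11443408-11443557: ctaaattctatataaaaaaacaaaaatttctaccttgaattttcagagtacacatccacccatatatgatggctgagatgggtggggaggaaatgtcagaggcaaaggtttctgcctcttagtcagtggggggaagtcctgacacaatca

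In *Nkg7* the RUNX letters, read on the minus strand, begin at -83 and the T-box letters at -13, counted from the start site at 0, and in *Adgrg5* the RUNX letters lie at -122. The RUNX letters were also in both windows of *Cd160* and in 1 of 2 of *Plac8*, at -201, -101 and 26, and in none of the *Ms4a4b* window. Such letters are common: of 32851 promoter windows of the same length, 16.8% held RUNX, 19.0% T-box and 16.9% ETS letters, and 5256 windows held KLF letters. A match is a description and not a binding site.

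Patterns over 21 means of gates and lineages, which share libraries, were compared with 7121 genes by Pearson's r as a description. *Runx3* was the gene most like *Nkg7* (r = 0.948), followed by *Glipr2* (0.935), *Ccdc102a* (0.907), *Cst7* (0.887) and *Crtam* (0.887). *Adgrg5* was also most like *Glipr2* (0.931), and *Nkg7* and *Adgrg5* had an r of 0.914 with each other. *Ms4a4b* was most like *Klf2* (0.977), a factor of mature thymocytes ready to leave, and its r with *Nkg7* was 0.544 and with *Cd160* 0.252. The leading genes of 4 others were *Cotl1* for *Ctsw* (0.963), *Eng* for *Cd160* (0.888), *Sorl1* for *Cd7* (0.959) and *Cst7* for *Plac8* (0.881).

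Genotypes within the CD8 lineage were compared in CD8 M cells in 5 contrasts that share mice. F5, MHCII-/-, OT-I, sorted wild-type and unsorted wild-type mice entered as groups, and AND replicate 1, with 63 such cells, as its own. Of the CD8-fated and wild-type mice, F5 mice had the lowest levels of *Klrd1*, *Adgrg5* and *Plac8*. *Klrd1* was at 15.02 and 11.4 CPM in F5 mice, 98.2 and 64.8 in MHCII-/-, 56.38 and 56.35 in OT-I, and 65.8 to 83.0 CPM in the 5 wild-type mice. No F5 mouse overlapped any of them. Against MHCII-/- mice *Klrd1* was lower in F5 by a log2 fold change of -2.90 ± 0.27 (SE, adjusted p = 0.000126), *Adgrg5* by -2.80 ± 0.39 (adjusted p = 0.0011) and *Ctsw* by -1.56 ± 0.31 (adjusted p = 0.0136, edgeR). These 3 of 8 stand beside 3.61% of 9347 genes called, or 2.57% lower. The 8 genes were chosen as high in late CD8-lineage cells, among them cells of these mice. Nothing is therefore read from the number called here or between OT-I and F5. Between OT-I and F5 mice *Klrd1* (2.23 ± 0.28, adjusted p = 0.00121), *Adgrg5* (2.63 ± 0.40, adjusted p = 0.00385) and *Plac8* (1.82 ± 0.35, adjusted p = 0.0184) were higher in OT-I, beside 2.62% of genes called, or 1.79% higher and 0.834% lower.

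*Adgrg5* was at 10.4 and 4.26 CPM in F5, 42.8 and 39.5 in MHCII-/-, 34.7 and 47.55 in OT-I, and 29.2 to 67.3 CPM in wild-type mice. *Ctsw* was at 212 and 124 CPM in F5 and 397 and 420 CPM in MHCII-/- mice, and *Plac8* at 118 and 90.9 CPM in F5 and 425 and 246 CPM in OT-I mice. Neither gene overlapped between F5 and the line compared, at 2 mice per line. How many of all genes did not overlap was not counted. *Cd160*, in contrast, was at 42.4 and 28.7 CPM in F5, 32.6 and 26.2 in MHCII-/-, and 41.4 and 20.3 in OT-I mice, and its log2 fold change between F5 and MHCII-/- was -0.00 with a 95% interval of -0.82 to 0.82. *Nkg7* was at 479 and 323 CPM in F5 mice, a log2 fold change of -0.97 ± 0.40 against MHCII-/- that did not pass (adjusted p = 0.295, edgeR). *Klrd1* and *Adgrg5* were called in 12 of 12 fits without 1 mouse in both contrasts, *Ctsw* in 9 of 12, lost without F5 replicate 2 (adjusted p = 0.118) or MHCII-/- replicate 1 (0.0896) or 2 (0.118), and *Plac8* in 10 of 12, lost without either F5 mouse (0.0807 each, edgeR). DESeq2 also called *Ms4a4b* (0.0448) and *Plac8* (0.0206) lower in F5 than in MHCII-/- mice. In that contrast edgeR called *Plac8* with the replicate number as a block (-1.31, adjusted p = 0.0417) and without cells near a gate threshold (-1.73, adjusted p = 0.0347). *Cd7* had a log2 fold change of -1.48, which did not pass (adjusted p = 0.112, edgeR), and of -2.56 without F5 replicate 1. The gates of these genotypes also held different RNA clusters: 97.8% and 90.9% of CD8 M cells of F5 mice lay in cluster 3, and 86.9% and 89.0% of those of MHCII-/- mice in cluster 8. Cluster 3 was made up mostly of F5 libraries, with 2165 and 2932 of its 5205 cells, and it held most cells of these libraries in all gates together (2165 of 2436 and 2932 of 4195). F5 mice differ from MHCII-/- mice in the TCR, in *Rag1* and in sorting, which cannot be told apart.

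OT-I against MHCII-/- mice gave no call among the 8 genes (0 of 8, beside 0.941% of genes, edgeR), with log2 fold changes from -0.84 for *Ctsw* to 0.53 for *Plac8*. At an unadjusted p under 0.05, *Ctsw*, *Klrd1* and *Ms4a4b* were lower in OT-I. The share of all genes at that threshold is not given here, so nothing is read from their number. DESeq2 called 0 of 8 too. MHCII-/- and wild-type mice sorted alike had the smallest differences. Their log2 fold changes were -0.14 to 0.24, 0 of 8 were called, by edgeR and by DESeq2, and 0 were below an unadjusted p of 0.05, beside 0.0321% of genes, with 95% intervals such as -0.44 to 0.76 for *Ctsw* and -0.65 to 0.92 for *Nkg7*. Between OT-I and unsorted wild-type mice of the same experiment 0 of 8 were called by edgeR and by DESeq2 (0.0428% of genes by edgeR, 0.0107% higher), and *Plac8*, the one gene with an unadjusted p under 0.05, had the largest difference of the 8 (0.97 ± 0.35, adjusted p = 0.922, edgeR).

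Within experiment 3 the 2 mice of a group differed. *Nkg7* in CD8 M cells was at 586 CPM in OT-I replicate 1 and 255 CPM in replicate 2, and at 630 CPM in wild-type replicate 4 and 291 CPM in replicate 5. *Ctsw* showed the same order, at 277 and 224.5 CPM and at 349 and 202 CPM, and so did *Ms4a4b*, at 1255 and 955 CPM and at 1563 and 1233 CPM, whereas *Klrd1* was at 56.38 and 56.35 CPM and at 65.8 and 74.7 CPM. The lower mice are those with the lower median depth given above, and 71.9% and 83.5% of the CD8 M cells of OT-I replicate 2 and wild-type replicate 5 lay in RNA cluster 2, against 70.4% and 81.6% of those of OT-I replicate 1 and wild-type replicate 4 in cluster 8. The part of depth was not tested. The *B2m* level of the whole library had the opposite order, at 655 and 1250 CPM in OT-I replicates 1 and 2 and 420 and 971 CPM in wild-type replicates 4 and 5.

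Related genes also differed between F5 and MHCII-/- mice in CD8 M cells. Against MHCII-/- mice 5 of 15 tested genes of the list were lower in F5 (*Id2*, *Itgae*, *Hopx*, *Eomes* and *Xcl1*) and *Gzma* was higher (4.69 ± 0.79, adjusted p = 0.00418, edgeR), beside 2.57% of genes lower and 1.04% higher. Their median log2 fold change was -1.04, beside -0.00 over all genes. *Gzma* was also higher in OT-I than in MHCII-/- mice (4.59 ± 0.79, adjusted p = 0.0143, edgeR). F5 and OT-I mice were not sorted and MHCII-/- mice were, so sorting and genotype cannot be told apart here. Of 7 NK cell markers, *Ncr1* had no UMI in CD8 M cells of CD8-fated mice and 6 had UMIs, and their sum, which includes *Gzma*, was 29.0 to 238 CPM in CD8-fated and 4.75 to 108 CPM in wild-type mice. The part of NK cells in the levels above was not tested. With cells of other types left out, 117 of the CD8 M cells, *Klrd1* had a mean of 50.7 CPM against 50.4 and *Nkg7* 496 against 490 CPM.

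The cells in the CD8 M gate of AND replicate 1, a CD4-fated mouse, had lower levels. They had 66.0 CPM of *Nkg7*, 19.9 of *Ctsw*, 3.14 of *Klrd1*, 161 of *Ms4a4b*, 2.10 of *Adgrg5*, 27.2 of *Cd7*, 79.6 of *Plac8* and 12.6 of *Cd160*, each below every CD8-fated and wild-type mouse. As they came from 1 mouse, this was not tested. Of these 63 cells, 34.9% lay in the double-negative-like cluster 15 and 20.6% in the cycling-like cluster 10. Cluster 3 held 19.05% and cluster 8 held 4.76% of them. The levels are therefore not those of mature CD8 cells alone. *Cd8a* in this gate was at 445 CPM. The sum of NK cell markers was 265 CPM and came from 3 of the 7 markers. *Ncr1*, *Klrb1c*, *Klra8* and *Eomes* had no UMI.

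In CD4 M cells, where most of the 8 genes were low, 2 of them differed between genotypes. *Ctsw* was at 24.65 and 19.35 CPM in AND, 145 and 158 in MHCI-/-, 45.5 and 87.0 in OT-II, and 98.2 to 174 CPM in wild-type mice. Both TCR-transgenic lines were below MHCI-/- mice, AND by a log2 fold change of -2.92 ± 0.29 (SE, adjusted p = 4.36e-05) and OT-II by -1.61 ± 0.34 (adjusted p = 0.0419, edgeR). The call for OT-II was kept in 3 of 11 fits without 1 mouse, being lost without either AND or MHCI-/- mouse, OT-II replicate 1 or any 1 of wild-type replicates 1 to 3 (adjusted p of 0.0585 to 0.329), and that for AND in 11 of 11. *Plac8* was at 55.9 and 33.2 CPM in AND and 46.6 and 87.0 in OT-II against 1.78 and 0.986 in MHCI-/- mice, higher by 4.86 ± 0.57 (adjusted p = 0.000164) and 5.18 ± 0.66 (adjusted p = 0.00168, edgeR). These are 2 of 8 genes in each contrast, beside 3.13% of 9389 genes for AND (0.49% higher and 2.64% lower) and 0.65% for OT-II (0.202% higher and 0.447% lower).

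*Plac8* in CD4 M cells differed between sorted and unsorted mice. It was at 0.615 to 6.64 CPM in the 5 sorted mice (MHCI-/- and wild-type replicates 1 to 3) and at 32.0 to 87.0 CPM in the 6 unsorted mice, so that the sort and the TCR cannot be told apart in the contrasts above. Between OT-II and wild-type mice of the same experiment, none of them sorted, the log2 fold change of *Plac8* was 0.06 ± 0.48 (SE, 95% interval of -0.97 to 1.09, adjusted p = 1.0, edgeR). *Plac8* of the whole libraries was 104 and 321 CPM in AND, 122 and 192 in OT-II, and 7.24 and 17.7 CPM in MHCI-/- mice. Markers of plasmacytoid dendritic and myeloid cells summed to 200 to 1010 CPM in CD4 M cells of CD4-fated mice, where 7 of 7 had UMIs, and to 98.2 to 296 CPM in wild-type mice, where 5 of 7 did and *Siglech* and *Itgax* had none. Their part in the *Plac8* levels was not tested. With clusters of other types left out, a choice made after seeing the data, the difference for AND was 1.92 and not called (adjusted p = 0.411), OT-II mice were above AND mice (2.93, adjusted p = 0.0254, edgeR), and the mean of *Plac8* in CD4 M cells of CD4-fated mice was 13.8 in place of 37.6 CPM. With cells near a gate threshold left out, the difference for OT-II was 3.19 and not called (adjusted p = 0.341, edgeR).

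OT-II against AND mice gave no call among the 8 genes (0 of 8, beside 1.2% of genes, 0.82% higher and 0.383% lower, edgeR, whereas DESeq2 called *Ctsw* at an adjusted p of 0.0376, and edgeR with the replicate number as a block at 0.0491), and at an unadjusted p under 0.05 *Ctsw* was higher and *Cd7* lower in OT-II. Neither MHCI-/- against sorted wild-type mice (0.0639% of genes, 0.0426% higher and 0.0213% lower) nor OT-II against unsorted wild-type mice (0.032%) gave a call among the 8 by edgeR or by DESeq2. At an unadjusted p under 0.05 the first held *Nkg7*, *Cd160* and *Plac8*, and the second *Ctsw*, *Cd160* and *Adgrg5*. For none of these contrasts is the share of all genes at the unadjusted threshold given, so nothing is read from these numbers of genes. Without the filter on low counts *Ctsw* was called lower in OT-II than in unsorted wild-type mice (-1.34, adjusted p = 0.021, edgeR). Its log2 fold change there was -1.35 with all mice and -1.71 without wild-type replicate 5. Of the related list *Gzma* was higher and *Hopx* lower than in MHCI-/- mice in both AND (4.83 and -4.62) and OT-II mice (4.01 and -4.96), and *Ccl5* was higher in MHCI-/- than in sorted wild-type mice (3.68 ± 0.60, adjusted p = 0.0287, edgeR).

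Some of the 8 genes rose with maturation in the CD4 lineage as well. Between CD4 SM and CD4 M cells of the same 11 mice, 6 CD4-fated and 5 wild-type, *Ctsw* was higher in CD4 M in 11 of 11 mice, with means of 67.2 and 111 CPM. The log2 fold change was 0.84 ± 0.06 (SE, adjusted p = 7.94e-11, edgeR with the mouse as a block). *Ms4a4b* was also higher in 11 of 11 mice, from 394 to 1406 CPM in CD4 SM and from 970 to 1771 CPM in CD4 M cells (1.03 ± 0.10, adjusted p = 6.56e-09), and *Cd7* in 10 of 11 (0.46 ± 0.09, adjusted p = 0.000219). *Nkg7* was at means of 8.49 and 13.5 CPM, higher in 8 of 11 (0.81 ± 0.19, adjusted p = 0.00192), and *Plac8* at 20.03 and 30.45 CPM, higher in 7 of 11 (1.35 ± 0.42, adjusted p = 0.019). All 5 of the genes tested were higher, beside 24.7% of 9022 genes called, or 13.5% higher.

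The calls of *Nkg7* and *Plac8* were less firm. Without clusters of other types, which held 540 of the 4159 CD4 M cells, neither passed the filter on low counts, nor did *Plac8* without cells near a gate threshold, and *Plac8* was not called without AND replicate 1 (adjusted p = 0.085) or wild-type replicate 4 (adjusted p = 0.11, edgeR). With 1 mouse left out the log2 fold change of *Plac8* ran from 0.80 to 2.35. *Klrd1*, *Cd160* and *Adgrg5* did not pass the filter, and without it *Klrd1* (2.04, adjusted p = 1.49e-07) and *Adgrg5* (1.45, adjusted p = 0.0401, edgeR) were called higher in CD4 M cells. That fit drew each gene's spread almost wholly to the trend over all genes. *Klrd1* had a mean of 0.935 CPM in CD4 SM and 5.31 CPM in CD4 M cells and was higher in CD4 M cells in 10 of 11 mice, of which wild-type replicate 5 reached 25.1 CPM. *Cd160* was higher in 4 of 11. Of the related list *Srgn*, *Il2rb*, *Runx3* and *Hopx* rose (4 of 7, log2 fold changes of 0.18 to 1.38) and *Id2* and *Cd8a* fell (-1.17 and -0.28).

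Surface proteins divide CD8 M cells without using the genes' RNA. CD122 is the receptor chain through which memory-like CD8 cells and NK cells receive IL-15, and Ly-6C marks mature and memory CD8 cells. In each of 10 CD8-fated and wild-type mice, the 25% of CD8 M cells highest in CD122 antibody were compared with the rest. Wild-type replicate 1 was left out, as its top 25% held 15 cells, under the minimum of 20. In the 10 mice CD122 antibody took 8.22 to 11.2 of 10000 antibody UMIs in the top 25% and 2.18 to 4.15 in the rest. Few antibody UMIs per cell thus decided the split. *Klrd1* was at 24.2 to 132 CPM in the top 25% and 7.93 to 86.6 CPM in the rest, with means of 78.0 and 54.5 CPM, and it was higher in 8 of 10 mice, all but wild-type replicates 4 and 5. The log2 fold change was 0.73 ± 0.13 (SE, adjusted p = 0.000201, edgeR with the mouse as a block), and the call was kept without any 1 of the 10 mice. By mouse, *Klrd1* was at 28.8 against 10.98 and 24.2 against 7.93 CPM in F5, 132 against 86.6 and 80.0 against 59.7 in MHCII-/-, and 111 against 39.7 and 72.1 against 51.6 CPM in OT-I mice.

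**Figure D4:**
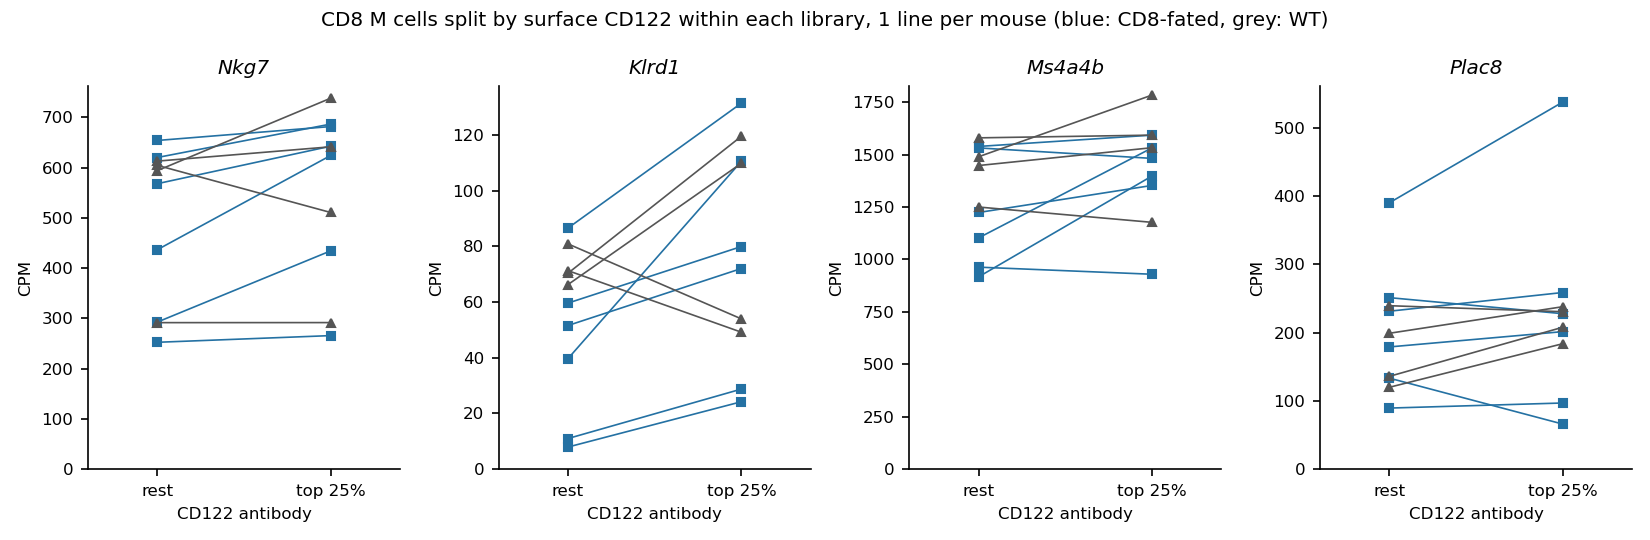
*Nkg7*, *Klrd1*, *Ms4a4b* and *Plac8* in CPM in CD8 M cells split by surface CD122, with a line joining the rest and the top 25% of each of 10 mice (blue CD8-fated, grey wild type). *Klrd1* was higher in the top 25% in 8 of 10 mice.

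*Nkg7* (0.22 ± 0.06, adjusted p = 0.033) and *Ms4a4b* (0.19 ± 0.05, adjusted p = 0.0343, edgeR) were also called with CD122, beside 2.07% of 6566 genes, or 0.411% higher and 1.66% lower. Their differences were small. Each was kept in 6 of 10 fits without 1 mouse and lost with DESeq2 (adjusted p of 0.139 and 0.238), with library sizes in place of TMM (0.0849 and 0.0792, edgeR) and with cells near a gate threshold left out (0.164 and 0.0741, edgeR). *Ms4a4b* was also lost without clusters of other types (0.0862) and with at least 50 cells per mouse and side (0.0561, edgeR), so that it was kept in 3 of 8 alternatives and *Nkg7* in 5 of 8. The other 5 genes did not pass, with *Cd7* nearest (0.25 ± 0.07, adjusted p = 0.081). *Plac8*, at 0.17 with all mice, was called without F5 replicate 1 (0.27, adjusted p = 0.0265, edgeR). *Nkg7* was lost without either F5 or either OT-I mouse (adjusted p of 0.0523 to 0.157) and *Ms4a4b* without either F5 mouse, OT-I replicate 1 or wild-type replicate 2 (0.0578 to 0.176, edgeR). Of 10 tested genes of the related list 0 were called. Split by Ly-6C, 0 of 8 genes were called by edgeR and by DESeq2, beside 0.0146% of 6854 genes, with log2 fold changes of -0.07 to 0.34. At an unadjusted p under 0.05 only *Klrd1* (0.30) and *Plac8* (0.34) were higher in the top 25%, with adjusted p of 1.0 and 0.398 (edgeR). Nothing is read from their number, as the share of all genes at the unadjusted threshold is not given. *Plac8* was called without wild-type replicate 4 (0.39, adjusted p = 0.0383) and without the filter on low counts (0.30, adjusted p = 0.00343, edgeR).

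Other cell types of the thymus shared parts of the group. All cells were clustered on RNA without the 8 genes and the related list, and levels are given per cluster as a description. Cluster 8, a CD8 single-positive-like cluster of 3451 cells led by *Itgae*, was highest in *Nkg7* (566 CPM over its cells) and *Adgrg5* (34.9 CPM). Cluster 22, with 434 cells, was left unnamed. Its leading genes were *S100a6*, *S100a4*, *Klra1*, *Cxcr6* and *Ly6c2*, and *Klrk1*, *Ccl5* and *Cxcr3* were among its first 10. It was highest in *Ctsw* (472 CPM), *Klrd1* (202 CPM), *Cd160* (134 CPM) and *Cd7* (355 CPM) and next to cluster 8 in *Nkg7* (530 CPM). Of its cells 209 were from CD8-fated, 175 from wild-type and 50 from CD4-fated mice. By mouse these were 87 and 108 cells in MHCII-/-, 6 and 5 in OT-I, 0 and 3 in F5, 13 and 7 in MHCI-/-, 18 and 11 in OT-II, 1 and 0 in AND and 19 to 46 in wild-type mice.

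**Figure D5:**
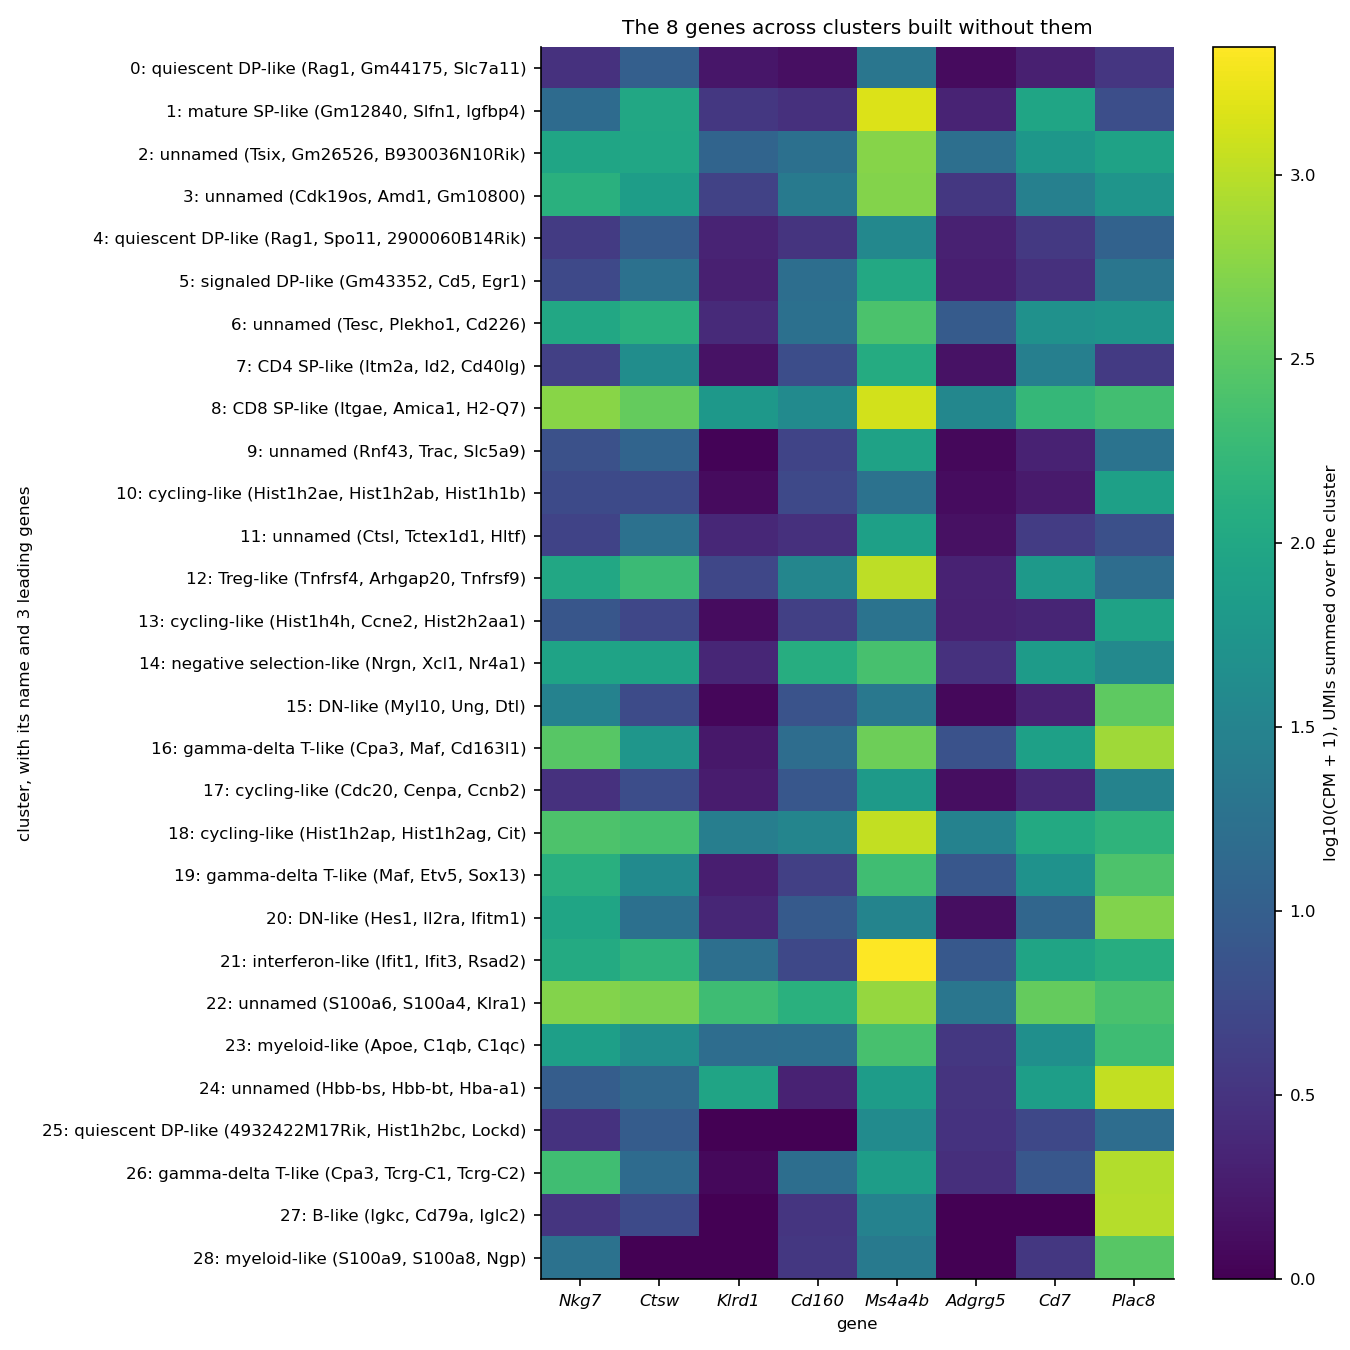
Level of each gene (columns) in each RNA cluster (rows, with name and leading genes), as log10 of CPM plus 1 over the summed UMIs of the cluster. *Klrd1* was highest in the unnamed cluster 22, at 202 CPM, and *Plac8* in the unnamed cluster 24, at 1092 CPM.

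*Cd160* was also high, at 122 CPM, in cluster 14 of negative selection-like cells, above the 39.4 CPM of cluster 8. *Ms4a4b* was highest in cluster 21 of interferon-like cells (2226 CPM), then in the mature single-positive-like cluster 1 (1475 CPM, 6515 cells, of which 4283 came from CD4-fated mice) and in cluster 8 (1323 CPM). *Plac8* was highest outside the CD8 lineage. It was at 1092 CPM in cluster 24, whose leading genes mix globin genes with MHC class II genes and *Lyz2* and which is given no name here, at 947 CPM in B-like cells and at 904 and 732 CPM in the gamma-delta T-like clusters 26 and 16. Cluster 16 also held 296 CPM of *Nkg7*. Its cells were mostly from TCR-transgenic mice, with 435 and 35 from AND, 218 and 9 from OT-II and 560 and 39 from OT-I mice. Wild-type mice gave 15. Cluster 26 held 70 and 17 cells from AND, 15 and 4 from OT-II, 58 and 73 from OT-I and 10 from wild-type mice. As the transgenic TCR is the only one of AND mice, the name gamma-delta T-like rests on RNA markers alone.

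Detection of several of the genes in one cell was counted after thinning to 1500 UMIs, which lowers it where cells are deeper. Of CD8 M cells of CD8-fated mice, with a median depth of 6375.5 UMIs, 68.1% had UMIs of at least 2 of the 8 genes and 13.3% of at least 4, and 7.88% had none. In CD4 M cells of CD4-fated mice 16.5% had at least 2 and 0.067% at least 4, and in DP2 cells 11% of CD8-fated and 1.92% of CD4-fated cells had at least 2. DP1 cells already had at least 2 in 5.18% of CD8-fated, 1.39% of CD4-fated and 0.351% of wild-type cells.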

How the data were processed

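RNA and antibody UMI counts per cell were deposited by the authors as raw counts (10x 3′ v3 libraries, 111 TotalSeq-A antibodies, Cell Ranger 3.1.0, mm10). The study's cell filters, rebuilt here from its methods, left 71941 of 85389 barcodes, not exactly the number of cells that the study gives, of which 2825 (3.93%) were called doublets and removed. The 8 genes and all lists were chosen with earlier results of these data known. The study compared cells by totalVI, a model of single cells, whereas mice are the units here. Gate thresholds were set per experiment by Otsu classes on centred log ratios of antibody counts. UMIs were summed per mouse and gate, with both lanes of wild-type replicates 4 and 5 added. Mice with at least 20 cells in a gate were tested with edgeR 4.0.16 in R 4.3.3 (TMM, filterByExpr, quasi-likelihood test, Benjamini-Hochberg over all genes tested at 0.05). Standard errors were taken from log2 fold changes and their F values, and 95% intervals from these with the degrees of freedom of the fit. DESeq2 1.42.0, with the inputs of its dispersion search rounded to 10 digits so that repeated runs end alike, was an alternative, with limits and other settings given in the closing section. Clusters were made with the Leiden algorithm (leidenalg, on a graph of shared neighbors, in Python 3.11.15) without the 8 genes and the related list. Clusters left out as other types were chosen after seeing the data.

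In the early gates same-numbered mice of a family deviated together in every pair (correlations of 0.133 to 0.872). Mice of a family also shared their sorting, and those of the MHC-deficient and OT families their experiment. These correlations therefore cannot show whether the replicate number marks pairs. Mice are the replicates, floors cover counting error only, and 3′ UMIs were not used to compare levels between genes. The named genes were the 8 genes in every comparison, at most 6 called genes of the related list per comparison by adjusted p, the 5 genes most like *Nkg7* and the 1 gene most like each other one (1 of these is not reported here), and 7 NK cell and 7 plasmacytoid dendritic and myeloid markers. On simulated counts the test recovered 68% of 2-fold and 99% of 4-fold changes in DP2 cells, and 13% and 77% for OT-I against MHCII-/- mice. Promoter sequences are from RefSeq (GRCm38.p6).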

Additional observations from a re-analysis of the deposited data

Results flagged for a closer look

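In groups of 4 to 6 mice, the highest or lowest mouse of 14 of 123 groups stood apart by Dixon's test, where chance gives about 1 in 20. *Nkg7* stood apart in DP2 cells of OT-I replicate 1 (109 CPM, the other CD8-fated mice 38.5 to 64.6), in CD4 SM cells of OT-II replicate 1 (26.7, others 2.02 to 10.5), in CD8 SM cells of OT-I replicate 2 (235, others 418 to 516) and in CD8 M cells of wild-type replicate 5 (291, others 580 to 636). *Klrd1* stood apart in wild-type replicate 5, in CD4+CD8lo cells at 20.9 CPM and in CD4 M cells at 25.1 CPM, where the other wild-type mice had 0.517 to 1.76 and 2.58 to 5.04 CPM. *Cd160* was at 106 CPM in CD8 SM cells of F5 replicate 2 (others 44.4 to 66.6).

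*Ms4a4b* stood apart in DP1 cells of AND replicate 1 (116 CPM, others 43.4 to 57.7), DP2 cells of OT-I replicate 1 (564, others 177 to 307), CD4 SM cells of wild-type replicate 5 (543, others 708 to 765) and CD4 M cells of OT-II replicate 2 (970, others 1400 to 1640). *Cd7* was at 63.6 CPM in CD4+CD8lo cells of AND replicate 1 (others 7.19 to 26.3). *Plac8* was at 138 CPM in DP1 cells of OT-I replicate 1 (others 5.94 to 52.5) and at 20.5 CPM in DP2 cells of wild-type replicate 5 (others 0 to 4.49). Wild-type replicate 5 and the OT-I and OT-II mice, all of experiment 3, account for 11 of these 14, and the part of depth or site was not tested.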

How the results depend on the processing

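Log2 fold changes of the 8 genes that were called kept their direction under every alternative fitted. With mice kept, 166 kept their side of the threshold and 15 were lost, and with 1 mouse left out 196 and 37. Levels kept within 1 SD in 76 of 80 cases. The exceptions were the mean of *Nkg7* in CD4 M cells of CD4-fated mice, 6.54 CPM without clusters of other types, and shares of cells after thinning to 1000 UMIs, 36.0% for *Nkg7* and 65.0% for *Ms4a4b* in CD8 M cells and 72.7% for *Ms4a4b* in CD4 M cells.

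Counts of genes called moved more. Without the filter on low counts they were 83 in DP1, 135 in DP2, 198 in CD4+CD8lo and 1674 in the mature gates, 461 for OT-I, 642 for F5 against MHCII-/-, 857 for OT-I against F5, 27 for MHCII-/- and 84 for OT-I against wild type, 364 for OT-II and 510 for AND against MHCI-/-, 403 for OT-II against AND, 23 for MHCI-/- and 87 for OT-II against wild type, 215 for CD122 and 24 for Ly-6C. Of the 8 genes, 7 were then called in DP1 and 6 each in DP2 and CD4+CD8lo cells, in place of 0, 2 and 1. DESeq2 called 5 in DP1, 39 in DP2, 58 in CD4+CD8lo, 5 for MHCII-/- and 26 for OT-I against wild type, 121 for OT-II against MHCI-/- and 8 for OT-II against wild type. Without the family term 0, 1, 8 and 370 genes passed in DP1, DP2, CD4+CD8lo and the mature gates. Without cells near a gate threshold 3 passed in DP2, 56 and 40 for OT-I and OT-II against the MHC-deficient mice, 1 and 0 for MHCII-/- and OT-I against wild type, and 50 for CD122. With library sizes in place of TMM 0 passed in DP1 and 121 for OT-II against MHCI-/-. With doublets kept these were 0 and 159, with 5 for OT-II against wild type and 2 for Ly-6C. Without clusters of other types 0 passed in DP1, 0 for OT-I against wild type and 2 for Ly-6C. The cause was not tested.

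With the replicate number as a block 0 passed in DP1, 89 in CD4+CD8lo, 1 for MHCII-/- and 59 for OT-II against wild type, 243 for OT-II against MHCI-/- and 215 for OT-II against AND. Among the genotypes of one mature gate same-numbered mice did not all deviate together (correlations of -0.224 to 0.663), so that the number is only shared there.

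With 1 mouse left out, counts ran from 0 to 2 in DP1, 2 to 18 in DP2, 10 to 59 in CD4+CD8lo, 501 to 1227 in the mature gates, 0 to 275 for OT-I and 135 to 421 for F5 against MHCII-/-, 79 to 684 for OT-I against F5, 1 to 5 for MHCII-/- and 0 to 6 for OT-I against wild type, 16 to 332 for OT-II and 75 to 442 for AND against MHCI-/-, 10 to 297 for OT-II against AND, 2 to 8 for MHCI-/- and 3 to 41 for OT-II against wild type, 1766 to 2281 for the CD4 step, 78 to 191 for CD122 and 1 to 3 for Ly-6C.

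Library sizes in place of TMM moved the split of higher and lower genes from 97 and 240 to 258 and 183 for F5 against MHCII-/- (median shift 0.266 on the log2 scale), from 35 and 53 to 51 and 44 for OT-I against MHCII-/- (0.142), from 167 and 78 to 138 and 118 for OT-I against F5 (-0.115), from 19 and 42 to 81 and 40 for OT-II (0.146) and from 46 and 248 to 61 and 217 for AND against MHCI-/- (0.118), from 1220 and 1006 to 709 and 2465 in the CD4 step (-0.111), from 483 and 475 to 587 and 364 in the mature gates and from 27 and 109 to 8 and 116 for CD122. The gene most like each by Spearman's rho in place of Pearson's r was the same for *Nkg7* (*Runx3*, 0.926) and *Adgrg5* (*Glipr2*, 0.88), and became *Hspe1* for *Ctsw* (0.945), *Atic* for *Klrd1* (0.909), *Cd226* for *Cd160* (0.908), *Ms4a6b* for *Ms4a4b* (0.975), *Evl* for *Cd7* (0.968) and *Ptpn22* for *Plac8* (0.858). *Klrd1* and *Adgrg5* did not pass the filter on low counts before the single-positive stage or in the CD4 step. Calls of the 8 genes gained without that filter come from fits of 90700 to 170000 degrees of freedom, in which each gene's spread is drawn almost wholly to the trend over all genes.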
